A study of Mus musculus with 12 samples.

Results

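Heat shock proteins and their DnaJ partners were followed in RNA sequencing libraries from the large intestine of mice that differ in telomerase. The members were chosen by name: every row whose symbol starts with Hspa, Hspb, Hspd, Hspe, Hsph, Hsp90, Dnaja, Dnajb or Dnajc, leaving out 7 pseudogene rows. This gave 71 of 28793 genes. By textbook location, 40 act in the cytosol or nucleus, 14 in the endoplasmic reticulum (ER) and 8 in mitochondria, and 9 were placed in none of these. The prefix Hspb also takes in Hspbp1 and Hspbap1, which are not small heat shock proteins.

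The 12 libraries came from C57BL/6 mice aged 3 months. Crypt base columnar cells sorted by GFP, labelled as stem and progenitor cells, gave 3 libraries from mTert heterozygous mice (labelled generation 0) and 3 from mTert null mice of generation 3 (null G3). Unsorted crypt epithelium gave 2 from heterozygous mice, 2 from mTert null mice 4 generations on (null G4) and 2 from mice of that generation with mTert labelled as reactivated, whose descriptions read G4tam. Libraries are labelled as biological replicates. The labels do not give the reporter that carries GFP, the reactivation allele or the animal behind each library, and p-values measure the spread between libraries. No GFP-negative or sorted reactivated cells were analysed here, and null G3 was sorted while null G4 was not, so generation and sorting cannot be told apart among the null mice.

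Chaperones of the Hsp70 family hold unfolded stretches of protein in cycles of ATP hydrolysis. DnaJ proteins start each cycle by handing over the client, and nucleotide exchange factors such as Hspa4, Hspa4l and Hsph1 end it. Hsp90 proteins finish the folding of kinases, receptors and secreted proteins, and the Hspd1 and Hspe1 chaperonin encloses proteins imported into mitochondria. Each compartment has its own set. Known switches are heat shock factor 1 for the cytosol, and the unfolded protein response (Xbp1, Atf6 and Eif2ak3) for the ER. Secretory and fast-dividing epithelia, including the crypt, are known for a high demand on both.

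The promoters of 3 ER members held the sequence that this response reads, and these are shown before the values. The ER stress response element, searched on both strands as CCAAT and CCACG with exactly 9 bases between them, occurred in promoters of 3 members: Hspa5, Hsp90b1 and Dnajc3. Promoters here are the RefSeq windows from 250 bases before to 50 bases after a gene's start (GRCm38.p6). Of the members, 57 had 74 such windows. The element was in 3 of the 12 ER members with a window, 0 of 33 cytosolic and 0 of 5 mitochondrial members. By window it was in 3 of the 74 of members (4.05%), against 39 of all 32851 windows (0.119%). Stretches around the matches are printed 5′ to 3′ on each gene's strand, with the element in capitals. That of Hsp90b1 holds 2 elements, the second of them on the opposite strand.
Hspa5: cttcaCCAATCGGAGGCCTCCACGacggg
Dnajc3: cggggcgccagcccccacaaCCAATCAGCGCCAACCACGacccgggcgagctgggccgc
Hsp90b1: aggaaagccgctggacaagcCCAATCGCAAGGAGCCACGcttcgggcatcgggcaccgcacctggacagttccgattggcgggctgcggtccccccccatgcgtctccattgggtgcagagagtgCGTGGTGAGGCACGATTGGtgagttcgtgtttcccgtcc
The Hspa5 stretch is at chr2:34772020-34772048 on the forward strand, 70 to 42 bases before the RefSeq start. In GENCODE the gene begins earlier, at 34771970, so the stretch lies inside the GENCODE span given below. Dnajc3 lies at chr14:118937807-118937865 (forward strand) and Hsp90b1 at chr10:86705513-86705676 (reverse strand).

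A run of 3 heat shock units, searched on both strands as GAANNTTC followed 2 bases on by GAA, was found in windows of 4 members: Dnajb6, Hsph1, Hspd1 and Hspe1. It was in 6 of the 74 member windows (8.11%), against 0.603% of all windows. Overlapping windows count the same site again, as for Dnajb6 and for Hsph1, whose match lies after the start. Hspd1 and Hspe1 lie head to head on chromosome 1 and share the stretch, printed here on the strand of Hspe1 (chr1:55088053-55088082) with overlapping matches on both strands in capitals.
Hspe1: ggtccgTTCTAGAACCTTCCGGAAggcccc
The shorter GAANNTTC, contained in the longer motif, was in windows of 12 members, among them Dnaja1, Hspa1a, Hspa1b and Hspb1. By window it was in 14 of the 74 of members (18.9%), against 7.86% of all windows, with the Dnajb6 and Hsph1 sites again counted repeatedly. TGACGTGG, another letter string read in the unfolded protein response, was in 1 member, Dnajc25. That is 1 of the 74 member windows (1.35%), against 0.676% of all windows. A match describes the letters only, and no binding was measured.

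Values are RPKM, in which reads are divided by gene length and by library total, so levels can be set between genes within a library. Of the 71 members, 36 were at 1 RPKM or more in all 12 libraries, 8 were at 10 or more in all, and 16 never reached 1. Much of the pool came from few genes: Hsp90ab1, Hspa8, Hspa5 and Hsp90b1 together held 47.7% to 58.9% of the members' summed RPKM in every library. Hsp90ab1, the constitutive cytosolic Hsp90, led in every group by mean level, at 136 ± 2.83 RPKM (SD, n = 2) in unsorted heterozygous crypts and 317 ± 36.0 (n = 3) in sorted heterozygous cells. Hspa8, the constitutive cytosolic Hsp70, was next in unsorted heterozygous crypts at 129 ± 10.7, and Hsp90b1, the Hsp90 of the ER, was next in sorted heterozygous cells at 165 ± 26.7. Small heat shock proteins were low. Hspb6 was the highest of them, at up to 2.61 RPKM in sorted cells, while Hspb1, which is inducible by heat in many cells, did not exceed 0.168 RPKM in any library, and Hspb2, Hspb7, Hspb8 and Hspb9 never reached 1. Cytosolic members made up 50.5% to 55.4% of the members' RPKM in the unsorted libraries, ER members 24.4% to 28.8% and mitochondrial members 15.8% to 18.1%.

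Several libraries stood apart from their labels or their group. Null G3 replicate 1 had 5424 genes at 1 RPKM or more, against 7721 to 9144 in the other sorted libraries. It listed Sis, a small intestinal brush border enzyme, at 372 RPKM against 1.369 to 2.003. Mki67, a proliferation marker, was at 4.74 against 61.6 to 75.2. Lgr5, a marker of crypt base stem cells, was at 0.121 against 3.40 to 4.74. Of the other listed markers of these cells, Ascl2, Smoc2, Axin2 and Rnf43 were also lowest in this library. Olfm4 went the other way, at 10.1 against 3.79 to 7.40. Among the unsorted libraries, Xist, expressed from the inactive X of females, was at 22.3 to 28.6 RPKM in null G4 replicates 1 and 2 and reactivated replicate 1, and the Y-linked Ddx3y was at 4.73 to 4.78 in both heterozygous libraries and reactivated replicate 2. Between null G4 and heterozygous crypts, genotype and sex therefore cannot be told apart. Of the sorted libraries, null G3 replicate 2 expressed Ddx3y (1.75 RPKM) and the others Xist. Tert itself was at 0.0171 and 0.0311 RPKM in the reactivated libraries, 0.00778 and 0.0377 in null G4 and 0.459 and 0.251 in heterozygous crypts, so the reactivated libraries lay within the range of null G4. In sorted cells it was at 0.0424, 0.0583 and 0.169 in heterozygous and 0, 0.0787 and 0.00131 in null G3 libraries, which overlap. Reads implied by the smallest RPKM steps were 74.8 to 103 (in units of 1e6) in unsorted libraries and 211 in sorted heterozygous replicate 2. In the other 5 sorted libraries 40.3% to 53.7% of low values came out whole, and no depth is given for them. Mitochondrial ribosomal RNA took 10.8% to 27.3% of summed RPKM in unsorted and 38.7% to 71.9% in sorted libraries. Epithelial markers summed to 1495 and 1941 RPKM in the unsorted heterozygous pair, 2522 and 3125 in null G4 and 2567 and 2829 in the reactivated pair. The sum was higher in null G4, like most members below. In reactivated replicate 2 it lay within the null G4 range. There the members summed to 833 RPKM, beside 725 and 797 in the heterozygous pair and 1276 and 1462 in null G4. The part of epithelial content in the members' differences was not tested. In the same libraries smooth muscle markers summed to at most 4.56, immune markers to at most 5.17 and endothelial markers to at most 0.257.

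Null G4 crypts were compared with heterozygous crypts to ask how the chaperones differ after 4 generations without telomerase. Levels of nearly all members were higher in the null libraries, in all 3 compartments, and 2 members passed the test: Hspa4l and Hsp90b1 rose. The median difference on the log2(RPKM + 1) scale was 0.55 for cytosolic, 0.46 for ER and 0.73 for mitochondrial members, beside 0.36 over all genes tested, so that most genes shifted the same way. The mean of null minus heterozygous was above 0 in 49 of the 50 members tested (25 cytosolic, 13 ER, 8 mitochondrial and 4 not placed). A log2 difference on this scale understates the change of low genes.

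Hspa4l, a nucleotide exchange factor of the Hsp110 branch (chr3:40744495-40796103, forward strand), was at 2.54 and 2.75 RPKM in the heterozygous libraries, 5.90 and 6.10 in null G4, and 5.35 and 3.66 in the reactivated libraries. Both null values were above all other unsorted values. Its log2 difference between null G4 and heterozygous crypts was 0.94 (SE 0.18, limma adjusted p = 0.0286).
Hsp90b1, the ER Hsp90 that folds integrins and Toll-like receptors (chr10:86690209-86705509, reverse strand), was at 33.0 and 37.0 RPKM in the heterozygous pair, 84.0 and 91.8 in null G4, and 79.8 and 43.3 in reactivated libraries. Reactivated replicate 1 lay just under the null pair and replicate 2 near the heterozygous pair. The log2 difference between null G4 and heterozygous crypts was 1.31 (SE 0.30, limma adjusted p = 0.0459), a fold of 2.47 on the RPKM + 1 scale. Thus 2 of 50 members passed, or 4%, all upward, against 4.97% of all 11464 genes tested that passed upward and 5.55% in either direction. The members' share is near the background.

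The number of calls depended on the reactivated pair, whose spread the fit of 6 libraries shares. With the 4 libraries of these 2 groups alone, 36 of 50 members passed upward and 1 downward, against 49.2% of all genes upward and 51.8% in either direction. By compartment these were 19 up and 1 down of 25 cytosolic, 10 of 13 ER and 7 of 8 mitochondrial members. The member that passed downward was Dnajb3, a DnaJ protein known from testis, at 2.44 and 2.13 RPKM in the heterozygous libraries and 1.54 and 1.13 in null G4 crypts, named after its values were seen. Leaving out either reactivated library also gave 36 up and 1 down, while leaving out any heterozygous or null library gave 0, and a term for sex, which rests on the reactivated pair alone, gave 0. Over all 11464 genes, the sex term left 59 passing upward and 10 downward, and calls over all genes moved with the libraries left out too. A filter at RPKM 5, which leaves 33 members, gave 19 upward, against 35.2% of all genes. Hspa4l kept its call under 3 other scalings (limma adjusted p 0.0399 to 0.0423), whereas Hsp90b1 did not (0.0711 to 0.115).

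Among the cytosolic members the abundant pair was higher in the null libraries. Hsp90ab1 was at 134 and 138 RPKM in the heterozygous pair, 232 and 271.5 in null G4 and 245 and 160 in reactivated crypts. The log2 difference between null G4 and heterozygous crypts was 0.87 (limma adjusted p = 0.0649). Hspa8 was at 121 and 136, then 176 and 210, then 207.5 and 144 RPKM, a log2 difference of 0.58 (limma adjusted p = 0.132). Neither passed, although the null and heterozygous values of both genes did not overlap, as in 81.2% of all genes tested.

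The inducible cytosolic members fell into those that followed the abundant pair and those that did not. Hsp90aa1, the inducible cytosolic Hsp90, had the largest log2 difference of the tested cytosolic members, 1.31 (limma adjusted p = 0.0620), from 20.6 and 22.8 RPKM in the heterozygous libraries and 51.5 and 59.6 in null G4 crypts. Of its reactivated values, 55.7 lay within the null range and 19.7 just below the heterozygous range. With the sex term the difference turned to −0.14, and that of Hsph1 below to −0.49. Dnajb1, the DnaJ partner induced with Hsp70, was at 7.80 and 8.55 RPKM in the heterozygous pair, 12.7 and 13.7 in null G4, and 14.6 and 10.3 in reactivated crypts (0.63 in log2 for null G4, limma adjusted p = 0.0635). Dnaja1 was at 3.14 and 4.22, then 5.75 and 6.12, then 5.92 and 3.75 RPKM (0.58, limma adjusted p = 0.0781). Hsph1, the inducible Hsp110, was at 4.47 and 4.56, then 5.90 and 6.04, then 7.23 and 3.64 RPKM (0.34, limma adjusted p = 0.290), so the reactivated libraries held both its highest and its lowest value.

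Hspa1a and Hspa1b, near-identical copies of the classical heat-induced Hsp70 whose reads may be split between them, showed no such pattern. Hspa1b was at 1.21 and 1.66 RPKM in the heterozygous pair, 1.62 and 1.48 in null G4, and 4.09 and 1.27 in reactivated crypts, and null G4 and heterozygous values overlapped (0.07 in log2, limma adjusted p = 0.865). Hspa1a stayed below 1 RPKM, at 0.0921 and 0.156, 0.157 and 0.248, and 0.738 and 0.144. Summed, the copies were at 1.30 and 1.81 RPKM in the heterozygous pair, 1.78 and 1.73 in null G4, and 4.83 and 1.41 in reactivated crypts. Reactivated replicate 1 thus stood alone for the copies. Hspb1 was at 0.0110 and 0.0329 RPKM in the heterozygous pair, 0.168 and 0.0769 in null G4 and 0.161 and 0.141 in reactivated crypts, too low to be tested.

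Among ER members, Hspa5, the ER Hsp70 known as BiP (chr2:34771970-34777547), was at 71.5 and 68.8 RPKM in the heterozygous pair, 153 and 174 in null G4 and 165 and 79.4 in reactivated crypts. The log2 difference for null G4 was 1.20 (limma adjusted p = 0.0579). Its DnaJ partner Dnajc3 went from 12.6 and 13.3 RPKM in the heterozygous pair to 25.3 and 27.3 in null G4 (0.97 in log2, limma adjusted p = 0.0526), with 24.7 and 14.8 in the reactivated pair. Hspa5, Hsp90b1 and Dnajc3 are the members with an ER stress response element printed above, and they had the largest log2 differences of the 13 ER members tested. Whether the element bears on these differences was not tested.
Dnajb11, a soluble BiP partner for secreted proteins, was at 17.2 and 18.96, then 31.6 and 34.4, then 33.7 and 17.8 RPKM (0.84 in log2 for null G4, limma adjusted p = 0.0709). Dnajc10, a disulphide reductase of the ER, was at 19.7 and 20.96, then 31.96 and 34.8, then 36.3 and 19.3 RPKM (0.69, limma adjusted p = 0.101). Dnajb9 is a partner known to restrain the stress sensor Ern1. It was at 4.97 and 8.12 RPKM in the heterozygous pair, 7.74 and 8.60 in null G4 and 7.46 and 5.56 in reactivated crypts. Its null and heterozygous values overlapped (0.31, limma adjusted p = 0.298). They did so in 2 of the 13 ER members, where 81.2% of all genes tested did not overlap. The other was Dnajb12 (0.13, limma adjusted p = 0.552), named after its values were seen. With the sex term the log2 differences of Dnajb11, Dnajc10 and Dnajb9 turned to −0.049, −0.19 and −0.055, and those of Hspa5 and Dnajc3 fell to 0.16 and 0.26.

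Mitochondrial members had the highest median of the 3 compartments. Hspd1, the mitochondrial chaperonin, was at 38.8 and 45.6 RPKM in the heterozygous pair, 83.0 and 93.7 in null G4, and 88.0 and 40.9 in reactivated crypts, and its lid Hspe1 at 13.7 and 17.5, then 29.3 and 33.2, then 33.1 and 13.7. The log2 differences for null G4 were 1.05 (limma adjusted p = 0.0663) for Hspd1 and 0.97 (0.0811) for Hspe1. With the sex term these turned to −0.036 and −0.25, and the mitochondrial median of 0.73 went to 0.042. That was then the lowest of the 3 compartments, beside 0.063 for cytosolic and 0.145 for ER members. The pair kept close step, with Hspd1 at 2.60 to 2.99 times Hspe1 in all 6 unsorted libraries.
Hspa9, the Hsp70 that pulls proteins through the inner membrane, was at 36.6 and 42.6, then 66.7 and 76.4, then 67.8 and 41.1 RPKM (0.84, limma adjusted p = 0.0676). Dnajc15, a DnaJ protein of the import motor, was at 11.7 and 14.3, then 23.1 and 28.2, then 26.3 and 15.1 RPKM (0.93, limma adjusted p = 0.0593), and Dnaja3, the matrix DnaJ, at 9.98 and 11.5, then 15.4 and 18.8, then 17.5 and 11.6 RPKM (0.62, limma adjusted p = 0.0804). No mitochondrial member passed. In all 8 the null values lay above the heterozygous values, where 81.2% of all genes tested did not overlap in either direction.

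**Figure D1:**
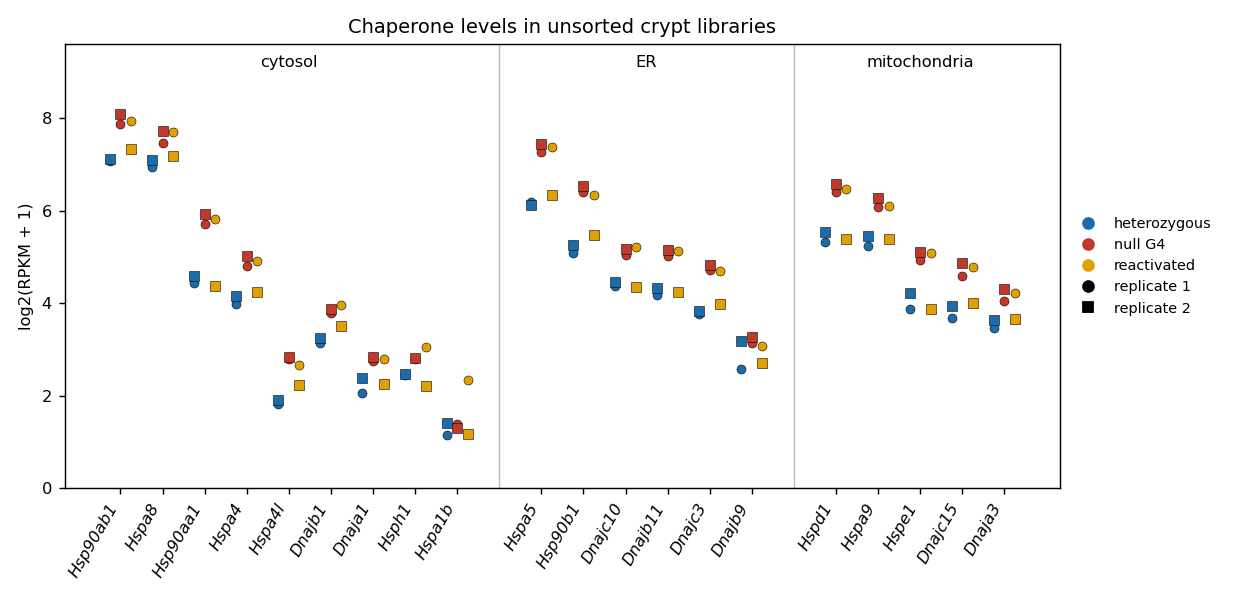
Levels of 20 chaperones in the 6 unsorted libraries, as log2(RPKM + 1) on the vertical axis, by gene and compartment, with blue for heterozygous, red for null G4 and yellow for reactivated libraries and a marker shape for each replicate. Reactivated replicate 1 (circle) lies by the null pair and replicate 2 (square) by the heterozygous pair for most genes, such as Hsp90b1 at 79.8 and 43.3 RPKM.

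Null and heterozygous values did not overlap in 46 of the 50 members, against 81.2% of all genes tested. At an unadjusted p under 0.05 there were 32 of 50 members, against 44.2% of all genes. Scaling mattered to the size: with quantile normalization the median over all genes went from 0.36 to 0.02, and the members' medians to 0.12 for cytosolic, 0.17 for ER and 0.25 for mitochondrial members, with 37 of 50 differences above 0. Under that scaling the differences of Dnajb9, Hspa1b and Hsph1 were below 0. In bulk libraries, more cells of a type and more RNA per cell cannot be told apart. Mki67 was at 20.4 and 19.6 RPKM in the heterozygous pair, 40.1 and 41.7 in null G4 and 31.9 and 22.7 in reactivated crypts, and its part in the members' differences was not tested. Fibroblast markers summed to 0.637 and 1.051 RPKM in the heterozygous pair, 2.03 and 2.63 in null G4 and 1.64 and 0.392 in reactivated crypts.

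Lists of other genes of the folding systems had medians from 0.35 to 0.68, beside 0.36 over all genes, and 1 gene of them passed. These lists were drawn up from textbook knowledge with earlier results of the data known, so they give no independent direction. In the ER folding and unfolded protein response list, 1 of 27 genes (3.70%) rose in null G4 crypts, against 4.97% of all genes: Calr, a lectin chaperone, from 73.5 and 78.3 to 193 and 211 RPKM (1.40 in log2, limma adjusted p = 0.0498). Canx, its membrane-bound counterpart, had a log2 difference of 1.104 (limma adjusted p = 0.0507), Sdf2l1, a partner of BiP, 1.18 (0.0526) and Pdia3, a disulphide isomerase, 1.02 (0.0526). The list's median was 0.59. In the list of heat shock factor and cytosolic co-chaperones, 0 of 25 passed and the median was 0.43, led by Ptges3, the Hsp90 co-chaperone p23, at 13.6 and 12.51 RPKM in the heterozygous libraries and 32.1 and 36.7 in null G4 crypts (1.33, limma adjusted p = 0.0527). In the chaperonin TRiC and prefoldin list 0 of 13 passed with a median of 0.68. Its lowest p was that of Cct6a, a TRiC subunit, at 26.6 and 29.1 RPKM in the heterozygous pair against 52.7 and 59.7 in null G4. Of 15 mitochondrial folding and protease genes 0 passed, with a median of 0.35. Immediate early genes, 10 of them tested, had 0 passing and a median of 0.07. With the 4 libraries of these groups alone, 21 of 27, 16 of 25, 12 of 13, 8 of 15 and 0 of 8 genes of these lists passed upward, against 49.2% of all genes. In both reactivated comparisons and in sorted null G3 cells, 0 genes of these 5 lists passed, against 0.0262% (reactivated against null G4), 1.27% (reactivated against heterozygous) and 0% (sorted) of all genes. Between sorted and unsorted heterozygous libraries, none of the ER, co-chaperone, TRiC and mitochondrial genes passed as higher and 7 of 27, 4 of 25, 1 of 13 and 4 of 15 passed as lower, whereas of 11 immediate early genes 3 passed as higher and 2 as lower, against 4.32% and 31.3% of all genes.

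The reactivated libraries were compared with null G4 and heterozygous crypts to ask whether the chaperones return when telomerase is labelled as switched back on. The pair did not act as a group. In reactivated replicate 1, all 50 members lay nearer the null G4 mean than the heterozygous mean, against 86.6% of all genes, and the median of its members minus the heterozygous mean was 0.56 in log2. Replicate 2 lay nearer the null mean in 8 of 50 members, against 32.7% of all genes, with a median of 0.06 from the heterozygous mean and −0.42 from the null mean. Replicate 1 was above replicate 2 in 49 of 50 members, against 83.3% of all genes.

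**Figure D2:**
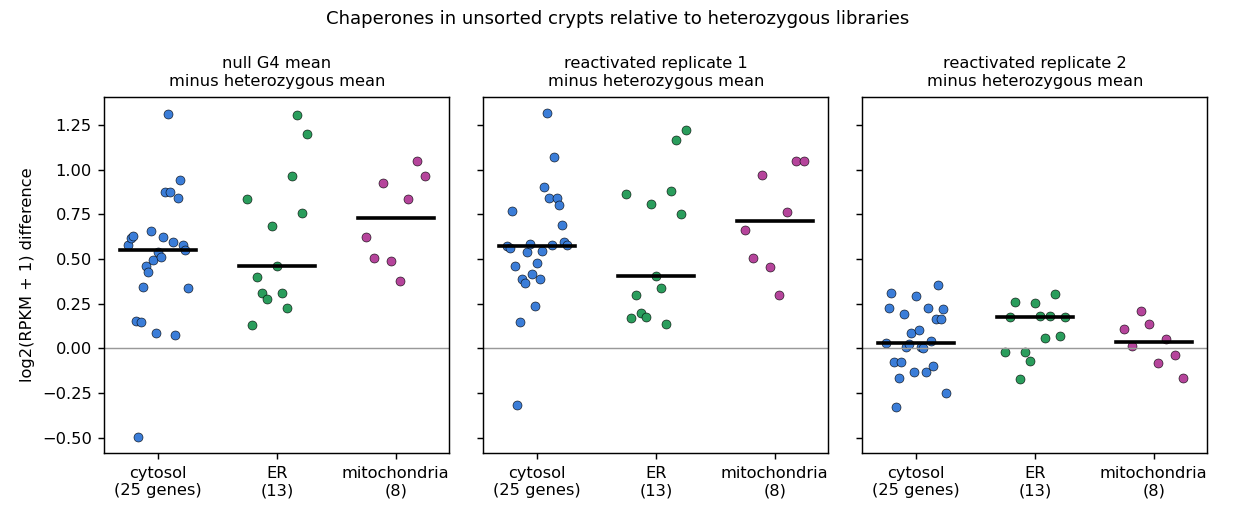
Differences in log2(RPKM + 1) from the heterozygous mean for the 46 tested members with a compartment, each a point, with a bar at the median, for the null G4 mean and for each reactivated library. Medians for reactivated replicate 1 are 0.57 (cytosol), 0.41 (ER) and 0.71 (mitochondria), beside 0.03, 0.18 and 0.03 for replicate 2.

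Against null G4, 0 of 50 members passed in limma, beside 0.0262% of all genes, and 0 had an unadjusted p under 0.05, beside 2.7% of all genes. The 4 members of smallest unadjusted p were Hspa4l (−0.36 in log2), Hsp90b1 (−0.57), Hsp90aa1 (−0.72) and Dnajc3 (−0.44), each with limma adjusted p = 0.833. Groups did not overlap in 11 members, against 30% of all genes. The median over members was −0.23, beside −0.14 over all genes. Without reactivated replicate 2, which leaves 3 Xist-expressing libraries, the median was −0.0013 and 0 passed, and without replicate 1 it was −0.42 and 1 passed downward, against 1.42% of all genes downward.

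Against heterozygous crypts, 0 of 50 members passed in limma, beside 1.27% of all genes, and 3 had an unadjusted p under 0.05, beside 14.1%. Smallest in p were Hspa4l (0.58 in log2, limma adjusted p = 0.229), Dnajb1 (0.54, 0.314), Hsp90b1 (0.74, 0.335) and Dnajc5, a DnaJ protein of secretory vesicles (0.39, 0.354). Reactivated and heterozygous values did not overlap in 25 members, against 51.1% of all genes. Without reactivated replicate 1, which leaves 3 Ddx3y-expressing libraries, the median of members was 0.06 and 0 passed, against 1.1% of all genes. Without replicate 2, 20 passed upward, against 19.8% of all genes. Both comparisons share their libraries with the one above, so their values are given side by side and not as separate evidence.

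Sex markers moved with this split. The 3 Xist-expressing libraries were all above the 3 Ddx3y-expressing libraries in 44 of 50 members, against 63.7% of all genes: 22 of 25 cytosolic, 11 of 13 ER, 8 of 8 mitochondrial and 3 of 4 members not placed. The reverse order was found in 0 members, against 2.02% of all genes. Hspa1b and Dnajb9 were among the 6 without such a split. Summed over members, RPKM was 1276 to 1462 in the Xist-expressing and 725 to 833 in the Ddx3y-expressing libraries. Hsp90ab1 was 4.40 to 4.56 times Hsp90aa1 in the former and 6.06 to 8.11 times in the latter, so the inducible Hsp90 was a larger part of the pair in the libraries with the larger pool. Mitochondrial ribosomal RNA was at 10.8% to 12.01% of RPKM in the former and 16.7% to 27.3% in the latter, and the part of sex or RNA makeup in the members' levels was not tested beyond the sex term.

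Null G3 sorted cells were compared with heterozygous sorted cells. No chaperone passed: 0 of 46 members in limma, beside 0% of the 8734 genes tested, and 1 member, Dnajc4, had an unadjusted p under 0.05, beside 1.64% of all genes. The differences were mostly negative and followed 1 library. Null G3 replicate 1 was below all other sorted libraries in 41 of 46 members, against 79.2% of all genes, and above them in 0 of 46, against 8.51% of all genes. Null G3 replicate 3, by contrast, had a median of 0.04 from the heterozygous mean, and replicate 2 a median of −0.39.

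Hsp90ab1 was at 338, 337 and 275 RPKM in the heterozygous libraries and 36.6, 191 and 359 in null G3 cells, so null G3 held both the lowest and the highest value. Hspa8 was at 105.5, 98.1 and 87.4, and at 37.3, 76.5 and 135 RPKM. Hsp90aa1 was at 60.4, 35.5 and 34.3, and at 8.91, 26.4 and 55.4 RPKM. All 3 cytosolic genes overlapped between the groups.
Hsp90b1 was at 196, 152 and 147 RPKM in the heterozygous libraries and 55.7, 134 and 167 in null G3 cells, and Hspa5 at 121, 90.5 and 89.8, and at 46.9, 59.9 and 109 RPKM. Hspd1 was at 132, 116 and 95.7, and at 15.8, 83.6 and 133 RPKM, Hspe1 at 41.5, 34.0 and 33.8, and at 5.79, 25.9 and 39.8, and Hspa9 at 35.0, 35.3 and 26.7, and at 8.35, 20.1 and 35.9. In each, null G3 replicate 1 was the lowest of the 6 libraries.
Dnaja1 and Dnajb9 did not follow that library. Dnaja1 was at 9.52, 8.15 and 8.29 RPKM in the heterozygous libraries and 9.24, 5.49 and 10.05 in null G3 cells, and Dnajb9 at 6.75, 4.63 and 5.07, and at 6.06, 5.46 and 5.45. Their null G3 replicate 1 values lay inside the range of the other sorted libraries.

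Most other named members were lowest in it. Dnajb1 was at 13.2, 11.4 and 11.5 RPKM in the heterozygous libraries and 5.63, 8.10 and 13.01 in null G3 cells, Dnajb11 at 30.0, 23.6 and 21.6, and at 10.7, 13.2 and 23.3. Dnajc3 was at 16.2, 13.9 and 14.8, and at 8.27, 8.64 and 13.3 RPKM, and Hspa4l at 8.24, 5.29 and 6.22, and at 1.15, 4.71 and 6.19. Of these, only Dnajc3 separated the groups, by a small margin.
Dnajc15 was at 12.8, 11.7 and 6.37 RPKM in the heterozygous libraries and 2.86, 8.32 and 10.8 in null G3 cells, and Dnaja3 at 7.62, 6.13 and 5.06, and at 1.69, 4.56 and 7.20. Hsph1 was at 15.03, 5.62 and 12.1, and at 2.11, 5.69 and 13.3 RPKM. Heat-inducible Hspa1a and Hspa1b together were at 2.92, 0.186 and 0.710, and at 0.249, 0.116 and 1.29, which spans more than 10-fold within heterozygous cells, and Hspb1 was at 0.166, 0.00456 and 0.0296, and at 0, 0 and 0.0264. For the summed Hspa1 copies, null G3 replicate 1 lay above heterozygous replicate 2 and null G3 replicate 2, and for Hspb1 it was listed at 0 with null G3 replicate 2. The groups overlapped for Hsph1, the Hspa1 copies and Hspb1.

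The 4 members of smallest unadjusted p were Dnajc4 (−0.70 in log2, SE 0.31), Dnajc14, an ER-membrane DnaJ protein (−0.69, SE 0.36), Dnajc18 (−0.61, SE 0.34) and Dnajc10 (−1.11, SE 0.64), each with limma adjusted p = 0.481. Dnajc10 was at 12.4, 14.0 and 13.5 RPKM in the heterozygous libraries and 1.08, 10.1 and 11.6 in null G3 cells, which did not overlap. Groups did not overlap in 5 of 46 members, against 12.7% of all genes. Median differences were −0.48 for cytosolic, −0.49 for ER and −0.54 for mitochondrial members, beside −0.46 over all genes. Without null G3 replicate 1 the median over members was −0.17, beside −0.19 over all genes, and 0 passed. In that library 41.9% of the members' RPKM was of ER genes and 11.7% of mitochondrial genes, against 26.4% to 30.4% and 16.9% to 18.5% in the other sorted libraries.

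**Figure D3:**
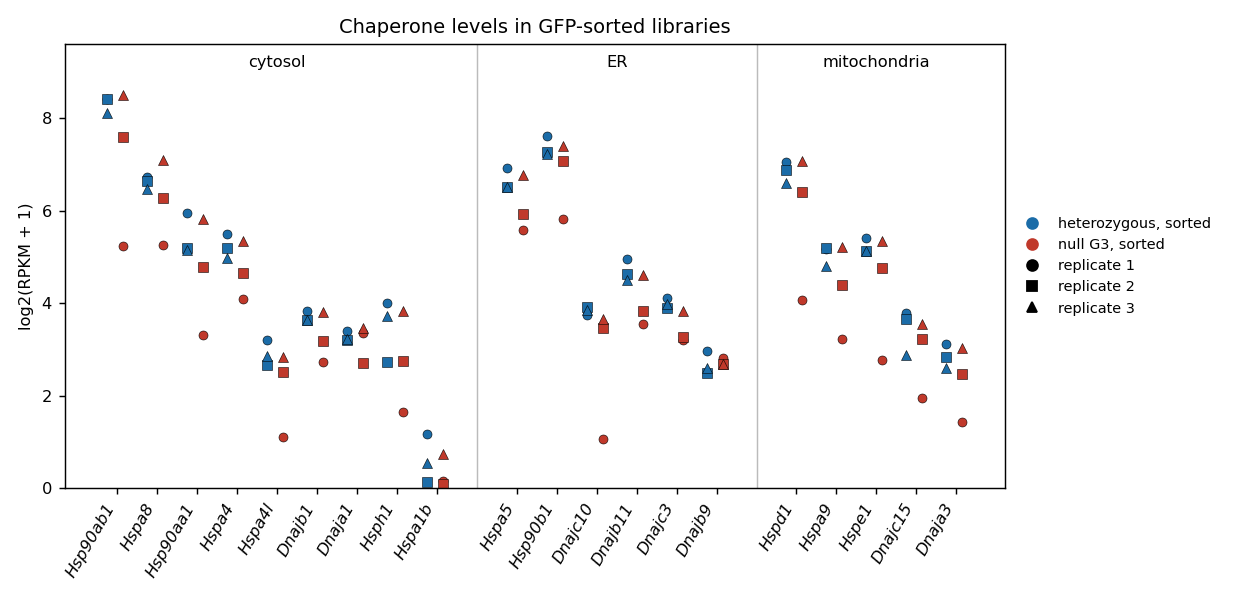
Levels of 20 chaperones in the 6 sorted libraries, as log2(RPKM + 1) on the vertical axis, by gene and compartment, with blue for heterozygous and red for null G3 libraries and a marker shape for each replicate. Null G3 replicate 1 (red circle) is lowest for most genes, such as Hsp90ab1 at 36.6 RPKM. Null G3 replicate 3 (red triangle) lies with or above the heterozygous libraries, except for Dnajc3 and Dnajc10, where it is below all of them.

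Sorted stem and progenitor cells were compared with unsorted crypts within heterozygous mice, the genotype in both sets. All 3 sorted heterozygous libraries expressed Xist (25.8 to 37.2 RPKM) and both unsorted ones Ddx3y (4.73 and 4.78), so sorting and sex cannot be told apart. Here 4 of 52 members were higher in sorted cells and 9 lower (limma, 12 libraries), against 4.32% of all 11862 genes higher, 31.3% lower and 35.6% in either direction. The 4 were Hsp90b1, Hspa4, Dnajc21 and Dnaja1. Sorted and unsorted columns list different numbers of genes (25686 and 27658) and may have been normalized separately, so levels across them carry that limit. Median differences were 0.08 for cytosolic (3 higher and 2 lower of 26), 0.09 for ER (1 and 3 of 14) and −0.32 for mitochondrial members (0 and 1 of 8), beside −0.39 over all genes.

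Hsp90b1 was at 196, 152 and 147 RPKM in sorted cells and 33.0 and 37.0 in unsorted crypts. The log2 difference was 2.20 (SE 0.47, limma adjusted p = 0.00408), the largest of the 52 members. Hspa4, a cytosolic exchange factor, was at 43.9, 35.7 and 30.4, and at 14.7 and 16.9 RPKM (1.15 in log2, limma adjusted p = 0.0400). Dnaja1 was at 9.52, 8.15 and 8.29, and at 3.14 and 4.22 (1.05, 0.0157), and Dnajc21, a DnaJ protein of ribosome biogenesis, at 7.36, 6.10 and 5.63, and at 2.29 and 2.35 (1.14, 0.0283). In all 4 the sorted and unsorted values did not overlap, as in 8886 of all 11862 genes tested.
Lower in sorted cells was Dnajb2, a DnaJ protein that sends clients to the proteasome, at 0.146, 0.0681 and 0.116 RPKM against 4.38 and 4.603. Its log2 difference was −2.31 (SE 0.19, limma adjusted p = 1.57e-05). Dnajc22 was at 3.01, 4.56 and 3.52 against 15.4 and 16.7 (−1.87, limma adjusted p = 0.00119), and Dnajb3 at 0, 0.126 and 0.00655 against 2.44 and 2.13 (−1.66, 3.98e-05). Dnajc4, Dnajc14 and the mitochondrial Dnajc11, known from cristae organisation, had differences of −1.15 (0.00455), −1.03 (0.0220) and −0.997 (0.0138). The other 3 lower members lay between −0.93 and −0.50. Dnajb2 and Dnajb3 were low in all 6 sorted libraries, with Dnajb2 at no more than 0.155 RPKM and Dnajb3 at no more than 0.341.

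**Figure D4:**
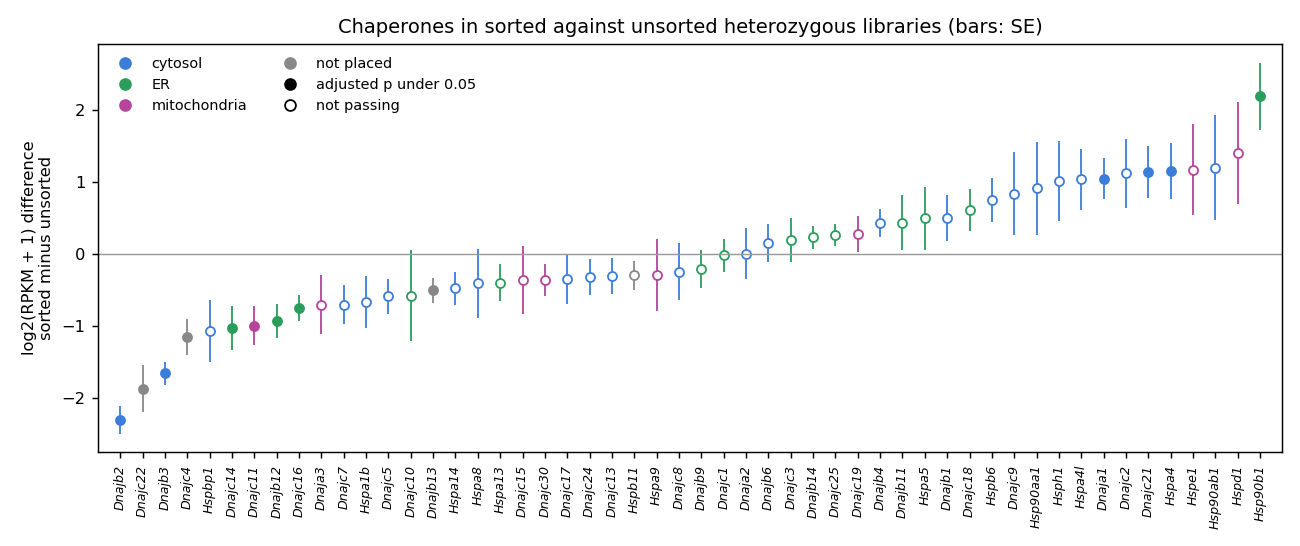
Difference in log2(RPKM + 1) between sorted and unsorted heterozygous libraries for the 52 members tested, in order of size, with bars of 1 SE and colours for compartment. Filled points passed, from Dnajb2 at −2.31 to Hsp90b1 at 2.20, and large but unfilled points such as Hspd1 had wide bars.

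Counts in this comparison moved with scaling and with null G3 replicate 1, whose spread the fit shares. Median scaling gave 24 higher and 6 lower (all genes 23.9% and 19%) and quantile normalization 21 and 6 (22.6% and 21%). The 5 heterozygous libraries alone gave 16 and 16 (14.7% and 44.9%). Leaving out null G3 replicate 1 gave 14 and 14, beside 1595 and 5311 of all 11824 genes. Without unsorted heterozygous replicate 1 or 2, which leaves 1 library in that group, fewer members and fewer of all genes passed. The log2 difference of Hsp90b1 was then 2.12 and 2.28. Of the other 3 higher members, Hspa4 no longer passed in 8 of the 12 fits that left out a library (adjusted p 0.0525 to 0.189), Dnajc21 in 5 (0.0515 to 0.131) and Dnaja1 in 3 (0.0521 to 0.139), and Dnaja1 did not pass after rescaling without mitochondrially encoded genes (0.0520). Ratios between members of 1 compartment do not depend on a library's scaling. The first 4 given here did not overlap between the sets once null G3 replicate 1 was set aside, and the others did. With that library kept, only Hsp90ab1 to Hspa8 of these 4 overlapped. Hsp90b1 was 1.54 to 2.23 times Hspa5 in 5 sorted libraries and 0.461 to 0.551 times in the unsorted ones. Hspd1 was 3.29 to 4.17 times Hspa9 in those 5 and 0.997 to 1.30 times in unsorted libraries, and Hsp90ab1 2.49 to 3.44 and 1.02 to 1.32 times Hspa8. Null G3 replicate 1 had 1.19, 1.89 and 0.982 for these ratios, between the sets for the ER and mitochondrial pairs. Hspa8 was 10.6 to 13.9 times its partner Dnaja1 in the 5 sorted libraries and 30.6 to 38.6 times in unsorted ones. In null G3 replicate 1 it was 4.03 times. Hspd1 to Hspe1 differed little, at 2.60 to 3.42 over all 12 libraries. How separate counting of the sets bears on these ratios was not tested.

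**Figure D5:**
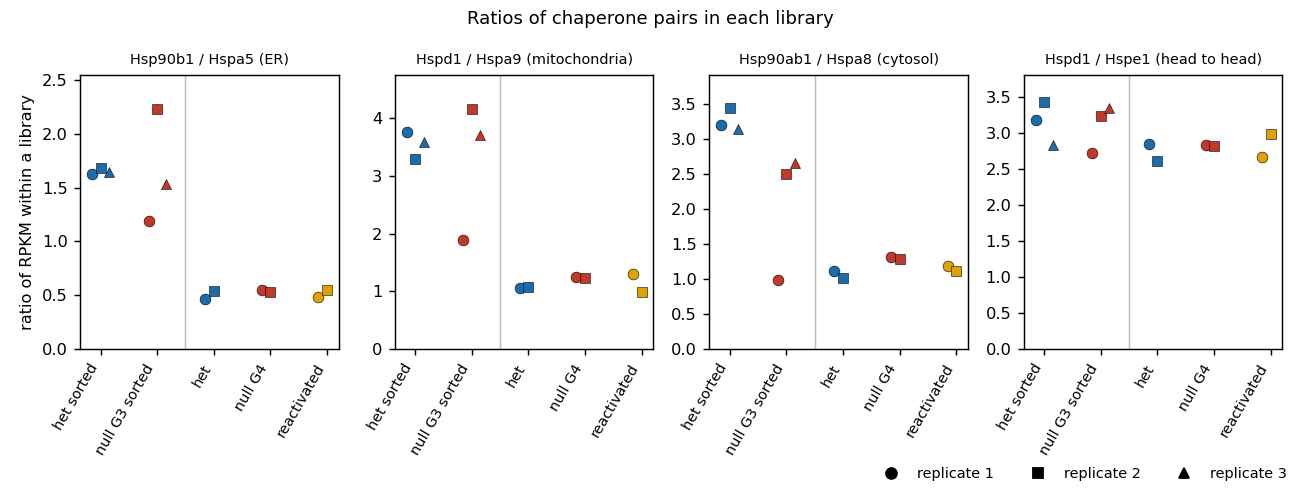
Ratio of RPKM within each of the 12 libraries for 4 pairs of chaperones, by group on the horizontal axis, with sorted groups left of the line and unsorted groups right of it. The ratios of Hsp90b1 to Hspa5, Hspd1 to Hspa9 and Hsp90ab1 to Hspa8 are higher in sorted than in unsorted libraries. The exception is Hsp90ab1 to Hspa8 in null G3 replicate 1. Hspd1 to Hspe1 stays between 2.60 and 3.42.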

How the data were processed

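RNA was made into TruSeq libraries, per the labels' protocols. STAR 2.3.0e and mm10 are named in the submitters' processing notes, with no role given. For annotation, counter and strand, details were not given in the sources used here. Values deposited by the authors are RPKM for 28793 genes in 12 columns, all used; no read counts were used. Members and lists were chosen with earlier results of these data known. Genes reaching 1 RPKM in at least the number of libraries of the smallest group fitted were tested on log2(RPKM + 1) with limma 3.58.1 (R 4.3.3, two-sided, trended variance), and p-values were adjusted by Benjamini-Hochberg over all genes, with a threshold of 0.05. The sorted fit held 6 libraries, the unsorted fit 6 and the fit of sorted against unsorted 12. The code was tested on simulated data. Always named were 20 members of known role, with members that passed in unsorted comparisons, the 6 highest and 6 lowest differences among those passing without overlap in sorted against unsorted, and, where none passed, the 4 of smallest p; up to 4 of smallest p were named per other list. Of low unsorted values 76.1% to 79% were whole reads (tolerance 0.05, up to 5 reads). Gene coordinates are from GENCODE M21 (GRCm38, all 71 members found), promoters from RefSeq. Alternatives were other pseudocounts, filters, scalings, sample sets, blocks and a sex term (male where Ddx3y was above 0.5 RPKM).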

Additional observations from a re-analysis of the deposited data

How the results depend on the processing

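For null G4 against heterozygous crypts, 2 members passed, and the count was 0 with no filter or a sex term, 1 with quantile normalization, median scaling or rescaling without mitochondrially encoded genes, 8 with the replicate block, 19 with a filter at RPKM 5, 37 with only the 2 groups, and 0 to 37 when a library was left out (0 for any heterozygous or null library, 37 for either reactivated one). Fewer libraries share the spread in the smaller fits, and for the others the cause was not tested. Calls over all genes moved too. In the main fit 5.55% of genes passed in either direction, and with only the 2 groups 51.8% did. The replicate block gave 1160 genes up and 157 down of 11464, and quantile normalization 135 and 102. A filter at RPKM 5 gave 35.2% upward. When a library was left out, calls over all genes fell or rose with those of the members. For reactivated against null G4 the count was 0 to 1 and against heterozygous 0 to 20 when a library was left out, the top values being without reactivated replicate 1 and without reactivated replicate 2. For sorted against unsorted the 13 passing became 27 with quantile normalization, 30 with median scaling, 6 with the replicate block, 32 with only the 5 heterozygous libraries, and 5 to 28 when a library was left out. Over all genes 35.6% passed in the main fit of that comparison. Quantile normalization gave 22.6% higher and 21% lower, median scaling 23.9% and 19%, and the 5 heterozygous libraries alone 14.7% and 44.9%. The replicate block gave 115 and 2623 of 11862 genes. Replicate numbers are shared between groups by name only. Deviations of same-numbered libraries correlated at −0.185 to 0.046 in sorted and −0.122 to 0.232 in unsorted groups. A crossed pairing of null G4 and reactivated libraries, added after seeing the data, gave 0 passing.

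In null G4 against heterozygous crypts some log2 differences changed sign. With the sex term they were −0.049 for Dnajb11, −0.055 for Dnajb9, −0.19 for Dnajc10, −0.14 for Hsp90aa1, −1.09 for Hspa1b, −0.036 for Hspd1, −0.25 for Hspe1 and −0.49 for Hsph1. Quantile normalization gave −0.12 for Dnajb9, −0.11 for Hspa1b and −0.045 for Hsph1, and median scaling −0.047, −0.28 and −0.020. Hspa1b was −0.00552 after rescaling without mitochondrially encoded genes, and −0.059 to 0.21 when a library was left out. For reactivated against null G4, Hsp90aa1 was 0.0070 with the sex term, and −1.45 to 0.0070 when a library was left out. Of the other values for named members, 533 kept direction and side of the threshold, 61 newly passed and 44 no longer passed. Depth of 5 of the 6 sorted libraries is unknown.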
